A study of Mus musculus with 20 samples.

Results

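The genes described here make phosphatidylcholine and phosphatidylethanolamine, the main phospholipids of the endoplasmic reticulum (ER) membrane, and were followed in mouse liver under ER stress. The 10 genes, Chka, Chkb, Etnk1, Etnk2, Pcyt1a, Pcyt2, Chpt1, Cept1, Pemt and Ptdss2, were chosen by name, with earlier results of these data known. They were read from the array probesets annotated with exactly that gene symbol, averaged per symbol. Of these, 7 had such a probeset (8 probesets in all, since Chka has 2), among 22180 genes and 41345 probesets. Chkb was listed only on probesets that also carry Cpt1b or Gm44502, and Cept1 only on one that also carries Dram2, so neither was given a value. Chpt1 was read from its own probeset, and 1 more that it shares with Sycp3 was left out. No probeset was listed for Etnk2, which was not analysed here.

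Livers came from adult male mice on a C57Bl6 background, either WT littermates or NFIL3 KO, which lack the bZIP transcription factor NFIL3 in the whole animal. Mice of each genotype received vehicle, a dextrose solution, or 1 µg/g tunicamycin, which blocks N-linked glycosylation and so loads the ER with misfolded protein, and livers were taken after 8 h. Each of the 4 groups held 5 mice, with 1 array per mouse and 20 arrays in total, and values are log2 signal. The comparisons ask how the liver responds to ER stress and whether that response needs NFIL3. A single dose and a single time were used, and because the deletion is in all cells it does not separate hepatocytes from other liver cells.

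The CDP-choline and CDP-ethanolamine routes, together the Kennedy pathway, run in parallel. A kinase phosphorylates choline (CHKA, CHKB) or ethanolamine (ETNK1, ETNK2), a cytidylyl transferase activates the product with CTP (PCYT1A for choline, PCYT2 for ethanolamine), and a phosphotransferase (CHPT1, CEPT1) joins it to diacylglycerol. Liver also has a route of its own, in which PEMT methylates phosphatidylethanolamine to phosphatidylcholine, while PTDSS2 exchanges the ethanolamine head group of phosphatidylethanolamine for serine. Stressed secretory cells are known to enlarge their ER membrane, for which these lipids are the material.

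Arrays within a group correlated at a mean r of 0.974 to 0.982. Of all arrays, NFIL3 KO tunicamycin replicate 3 stood apart, at 16.7 on the first principal component against 47.1 to 57.1 for the other livers of its group. The targeted gene Nfil3 averaged 6.44 ± 0.45 (SD, n = 5) in WT vehicle, 7.99 ± 0.47 in WT tunicamycin, 5.41 ± 0.20 in KO vehicle and 5.25 ± 0.46 in KO tunicamycin livers, and KO and WT did not overlap under either treatment. Hspa5, the ER chaperone BiP, rose 4.3-fold with tunicamycin in WT livers, by 2.10 ± 0.09 log2 (SE, adjusted p = 1.5e-13), and by 2.15 ± 0.09 in NFIL3 KO livers.

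Tunicamycin moved 5 of the 7 measured genes, and the same 5 in both genotypes: the choline kinase Chka rose, and Pcyt1a, Pcyt2, Chpt1 and Pemt fell. Called here means a Benjamini-Hochberg adjusted p below 0.05 over all 22180 genes in limma. By that rule 13.7 percent of all genes rose and 13.7 percent fell in WT livers. In NFIL3 KO livers 13.5 percent rose and 13.7 percent fell, and 1 riser and 4 fallers of 7 are read against those shares. Those shares include dim genes. Fitted alone, the 11090 genes at or above the median gene signal, which include all 7, gave larger shares. Of them 3055 rose and 2996 fell in WT livers, and 3033 and 3032 in NFIL3 KO livers. In WT livers 1 of the 7 rose and 5 fell by that fit. The added faller was Ptdss2, which that fit also called in NFIL3 KO livers (adjusted p = 0.0243). The median difference over the 7 genes was -0.25 log2 in WT and -0.40 log2 in NFIL3 KO livers, against -0.03 over all genes in each. For all 5, no tunicamycin liver overlapped a vehicle liver of its genotype. Over all genes 11.7 percent lay wholly higher and 10.5 percent wholly lower in WT livers, and 10.3 and 10.6 percent in NFIL3 KO livers. In whole liver, fewer cells of a type and less RNA per cell cannot be told apart.

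The sequences upstream of 3 of these genes are shown, for the one that rose (Chka), the phosphotransferase that fell (Chpt1) and the cytidylyl transferase of the choline route (Pcyt1a). Each is the RefSeq window from 250 bases before to 50 bases after a listed transcript start (GRCm38.p6), read 5′ to 3′ on the strand of the gene, with the matches described next in capitals. Chka lies at chr19:3851523-3851822 on the plus strand, Chpt1 at chr10:88503921-88504220 on the minus strand, and Pcyt1a, in the first of its listed windows, at chr16:32430671-32430970 on the plus strand.
Chka: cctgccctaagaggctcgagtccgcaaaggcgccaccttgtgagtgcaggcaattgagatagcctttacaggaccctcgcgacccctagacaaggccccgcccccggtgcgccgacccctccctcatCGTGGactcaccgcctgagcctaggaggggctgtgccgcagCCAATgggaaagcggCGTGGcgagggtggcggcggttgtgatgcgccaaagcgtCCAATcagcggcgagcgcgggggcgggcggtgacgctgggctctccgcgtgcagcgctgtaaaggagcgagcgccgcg
Chpt1: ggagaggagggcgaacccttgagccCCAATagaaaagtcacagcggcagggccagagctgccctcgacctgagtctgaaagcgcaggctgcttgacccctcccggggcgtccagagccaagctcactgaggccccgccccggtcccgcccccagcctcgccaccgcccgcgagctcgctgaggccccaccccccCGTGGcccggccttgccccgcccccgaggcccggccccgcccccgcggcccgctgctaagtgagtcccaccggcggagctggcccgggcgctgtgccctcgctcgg
Pcyt1a: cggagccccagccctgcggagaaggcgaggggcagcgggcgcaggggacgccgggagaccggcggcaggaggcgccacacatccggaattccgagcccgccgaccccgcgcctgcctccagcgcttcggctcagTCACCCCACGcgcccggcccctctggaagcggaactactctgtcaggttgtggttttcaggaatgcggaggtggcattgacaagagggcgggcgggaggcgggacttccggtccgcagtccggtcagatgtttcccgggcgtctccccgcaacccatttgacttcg

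Windows were found for 9 of the 10 genes, 14 windows in all, with none listed for Pcyt2. Both strands were searched for the elements that stress and sterol factors are known to read. None of the 14 windows held the C/EBP-ATF response element TGATGNAA (CARE, in 3.97 percent of 32851 mouse promoters), the unfolded protein response element TGACGTGG (0.676 percent), the cyclic AMP response element TGACGTCA (1.79 percent), the D-box TTACGTAA or TTATGTAA that NFIL3 can bind (1.06 percent), or the E-box CACGTG (7.15 percent). The ER stress response element, CCAAT and CCACG 9 bases apart, was not in any of them either (0.119 percent of all). In the Chka window, CCAAT began at -82 and -28 and CCACG, on the minus strand, at -123 and -67, counted from the transcript start. The Chpt1 window held CCAAT at -225 and CCACG on the minus strand at -56. CCAAT alone occurred in 37.4 percent of all promoters and CCACG in 32.8 percent. The sterol regulatory element TCACNCCAC, in 1.24 percent of promoters, began at -116 in the Pcyt1a window, where its end overlaps a CCACG, and the same copy lay at -215 in the second Pcyt1a window. These matches are letters in a window, and no binding was measured here.

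**Figure D1:**
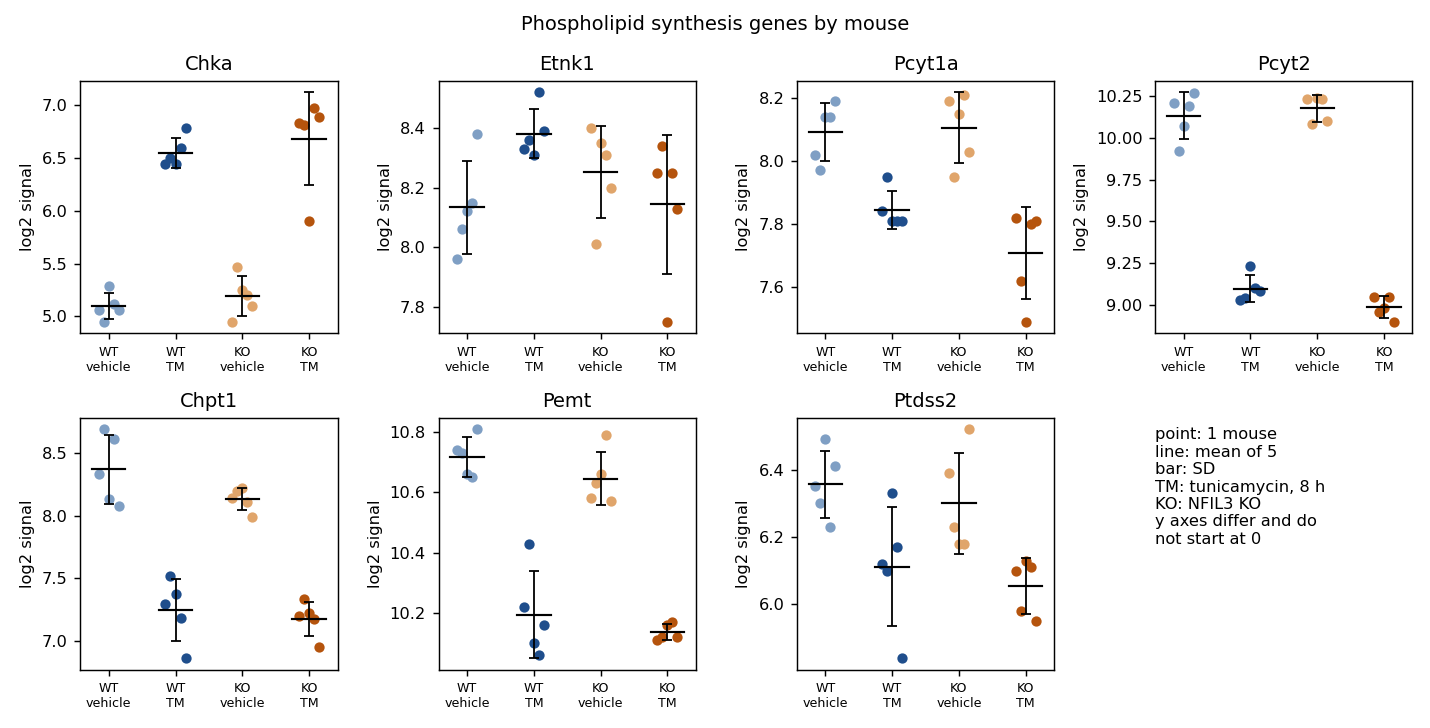
Log2 signal (y axis, scaled separately for each gene and not from 0) of the 7 measured phospholipid synthesis genes in each of the 20 livers, by group on the x axis, with the mean of 5 as a line and the SD as a bar. Chka is higher, and Pcyt1a, Pcyt2, Chpt1 and Pemt are lower, in every tunicamycin liver than in any vehicle liver of the same genotype.

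Chka, the kinase that commits choline to the CDP-choline route, was the only measured gene that rose. Averaged over its probesets, its signal in WT livers was 5.06, 4.95, 5.29, 5.12 and 5.06 with vehicle and 6.44, 6.50, 6.44, 6.59 and 6.78 with tunicamycin. NFIL3 KO livers read 4.95, 5.47, 5.25, 5.20 and 5.10 with vehicle and 6.83, 6.81, 5.90, 6.97 and 6.89 with tunicamycin. All treated livers lay above all vehicle livers of their genotype, with NFIL3 KO replicate 3, at 5.90, the lowest of the treated. Chka rose by 1.45 ± 0.15 log2, or 2.74-fold, in WT livers (SE, 95% interval 1.14 to 1.77, adjusted p = 8.4e-08). In NFIL3 KO livers it rose by 1.48 ± 0.15 log2, or 2.8-fold (1.17 to 1.8, adjusted p = 6.6e-08), and by 1.68 log2 without replicate 3.

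The average joins probesets of unlike signal. The brighter Chka probeset read 6.19, 6.08, 6.37, 6.6 and 6.49 in WT vehicle livers and 8.96, 9.10, 8.73, 8.67 and 9.02 in WT tunicamycin livers. Without NFIL3 it read 6.31, 6.29, 6.32, 6.51 and 6.37 with vehicle and 8.89, 8.97, 7.61, 9.72 and 9.23 with tunicamycin. Taken alone it rose 5.85-fold in WT livers (2.55 ± 0.25 log2, SE, 95% interval 2.03 to 3.06, adjusted p = 1.2e-07 over all probesets) and 5.74-fold in NFIL3 KO livers (2.52 ± 0.25 log2, 2.01 to 3.04, adjusted p = 1.5e-07). Replicate 3 was again the lowest treated NFIL3 KO liver, and without it the rise there was 2.84 ± 0.15 log2.

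The dimmer Chka probeset averaged 3.85 ± 0.24 (SD, n = 5), 4.20 ± 0.31, 4.03 ± 0.40 and 4.48 ± 0.26 in WT vehicle, WT tunicamycin, KO vehicle and KO tunicamycin livers, below the array medians of 4.65 to 4.77. Its groups overlapped, and its differences of 0.36 ± 0.19 log2 in WT (SE, adjusted p = 0.212) and 0.45 ± 0.19 in NFIL3 KO livers (adjusted p = 0.104) were not called. In the numbering of the array, the 11 probesets next to the brighter one that lie within 2 Mb of Chka are all of genes on the strand of Chka, the plus strand, while 10 of the 11 next to the dimmer one are of genes on the minus strand. What the dimmer probeset detects was not tested.

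**Figure D2:**
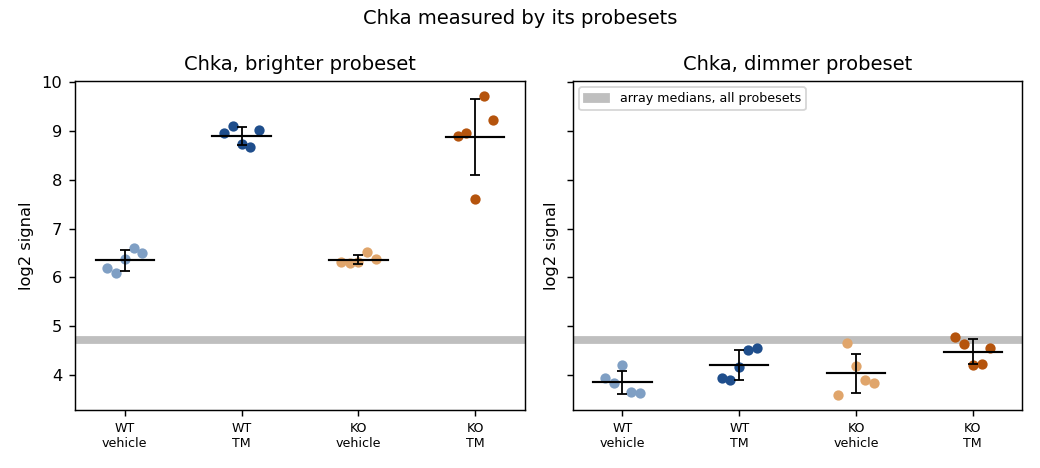
Log2 signal (y axis) of the brighter (left) and dimmer (right) Chka probeset in each of the 20 livers by group, with the mean of 5 as a line, the SD as a bar and the range of the array medians in grey. The brighter probeset separates tunicamycin from vehicle livers in both genotypes, and the dimmer one lies around or below the array medians with overlapping groups.

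Etnk1, the kinase at the same step for ethanolamine, was not called in either genotype. It read 7.96, 8.06, 8.12, 8.15 and 8.38 in WT vehicle livers and 8.33, 8.36, 8.31, 8.52 and 8.39 in WT tunicamycin livers, where the highest vehicle liver overlapped the treated ones. In NFIL3 KO livers it read 8.40, 8.01, 8.35, 8.31 and 8.20 with vehicle and 8.25, 8.34, 7.75, 8.25 and 8.13 with tunicamycin, again overlapping. The difference was 0.25 ± 0.11 log2 in WT (SE, 95% interval 0.02 to 0.47, adjusted p = 0.103) and -0.11 ± 0.11 in NFIL3 KO livers (-0.34 to 0.11, adjusted p = 0.53). The WT difference passed the threshold with weighted arrays (adjusted p = 0.046), without WT vehicle replicate 5 (0.0444) or without KO tunicamycin replicate 3 (0.0461).

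Both cytidylyl transferases fell. Pcyt2, on the ethanolamine side, read 10.21, 9.92, 10.07, 10.19 and 10.27 in WT vehicle livers and 9.03, 9.04, 9.23, 9.10 and 9.08 in WT tunicamycin livers. NFIL3 KO livers read 10.23, 10.08, 10.24, 10.23 and 10.10 with vehicle and 9.05, 8.96, 8.98, 9.05 and 8.90 with tunicamycin. Every treated liver lay below every vehicle liver. Pcyt2 fell 2.05-fold in WT livers (-1.04 ± 0.08 log2, SE, 95% interval -1.20 to -0.87, adjusted p = 7.1e-10) and 2.28-fold in NFIL3 KO livers (-1.19 ± 0.08, -1.36 to -1.02, adjusted p = 1.0e-10).

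Pcyt1a, which encodes the enzyme held to set the pace of the CDP-choline route, fell by less than Pcyt2 in both genotypes. It read 8.02, 7.97, 8.14, 8.14 and 8.19 in WT vehicle livers and 7.84, 7.95, 7.81, 7.81 and 7.81 in WT tunicamycin livers. With vehicle, NFIL3 KO livers read 8.19, 7.95, 8.15, 8.21 and 8.03, and with tunicamycin 7.82, 7.62, 7.49, 7.80 and 7.81. The treated livers were lower without overlap, although in WT replicate 2, at 7.95, came next to the lowest vehicle liver at 7.97. Pcyt1a fell 1.19-fold in WT livers (-0.25 ± 0.08 log2, SE, 95% interval -0.42 to -0.07, adjusted p = 0.0298) and 1.32-fold in NFIL3 KO livers (-0.40 ± 0.08, -0.57 to -0.22, adjusted p = 7.3e-04). The WT call was lost on leaving out WT vehicle replicate 3, 4 or 5 or WT tunicamycin replicate 1, 3, 4 or 5, with differences of -0.22 to -0.25 log2 and adjusted p from 0.0511 to 0.0752.

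Within an array, the Pcyt2 signal exceeded that of Pcyt1a by 1.92 to 2.18 log2 in WT vehicle livers and by 1.09 to 1.42 in WT tunicamycin livers. The same difference in NFIL3 KO livers was 2.02 to 2.13 with vehicle and 1.09 to 1.49 with tunicamycin. The ranges did not overlap in either genotype, so the difference between the groups was not the same for the 2 signals. This says nothing of which transcript is the more abundant, since the probesets differ.

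Chpt1, the cholinephosphotransferase that completes the CDP-choline route, fell in both genotypes. Its signal was 8.33, 8.69, 8.13, 8.61 and 8.08 in WT vehicle livers and 7.29, 7.52, 7.37, 7.18 and 6.86 in WT tunicamycin livers. NFIL3 KO livers read 8.14, 8.20, 8.22, 8.11 and 7.99 with vehicle and 7.20, 7.33, 7.22, 7.17 and 6.95 with tunicamycin. Treated livers were lower without overlap in both genotypes. The fall was 2.18-fold in WT (-1.13 ± 0.13 log2, SE, 95% interval -1.39 to -0.87, adjusted p = 2.1e-07) and 1.94-fold in NFIL3 KO livers (-0.96 ± 0.13, -1.22 to -0.70, adjusted p = 2.2e-06).

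Pemt, the methyltransferase of the liver's second route to phosphatidylcholine, also fell. Its signal was 10.74, 10.73, 10.66, 10.65 and 10.81 in WT vehicle livers and 10.22, 10.43, 10.10, 10.06 and 10.16 in WT tunicamycin livers. In NFIL3 KO livers it was 10.58, 10.63, 10.66, 10.79 and 10.57 with vehicle and 10.11, 10.12, 10.16, 10.17 and 10.12 with tunicamycin. The treated NFIL3 KO livers were close together, with an SD of 0.03, and neither genotype showed overlap. Pemt fell 1.44-fold in WT (-0.52 ± 0.08 log2, SE, 95% interval -0.69 to -0.36, adjusted p = 1.4e-05) and 1.43-fold in NFIL3 KO livers (-0.51 ± 0.08, -0.68 to -0.35, adjusted p = 1.8e-05).

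Ptdss2, which draws on phosphatidylethanolamine to make phosphatidylserine, lay close to the threshold. It read 6.35, 6.30, 6.49, 6.23 and 6.41 in WT vehicle livers and 6.12, 6.10, 6.33, 6.17 and 5.84 in WT tunicamycin livers. In NFIL3 KO livers it read 6.39, 6.23, 6.18, 6.18 and 6.52 with vehicle and 6.10, 5.98, 6.13, 6.11 and 5.95 with tunicamycin. Of the treated WT livers 4 lay below all vehicle livers, and the NFIL3 KO groups did not overlap. The differences were -0.25 ± 0.09 log2 in WT (SE, 95% interval -0.44 to -0.05, adjusted p = 0.0588) and -0.24 ± 0.09 in NFIL3 KO livers (-0.44 to -0.05, adjusted p = 0.0598). Both passed the threshold when dim genes were left out of the test (adjusted p = 0.0242 and 0.0243), after cyclic loess (0.026 and 0.0315) and in a model of probesets without variance moderation (0.0485 and 0.0499). The WT call was also gained without WT vehicle replicate 4 (0.0471), WT tunicamycin replicate 3 (0.0239) or KO vehicle replicate 5 (0.0487), and the NFIL3 KO call with weighted arrays (0.0424) or without WT tunicamycin replicate 5 (0.0399).

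**Figure D3:**
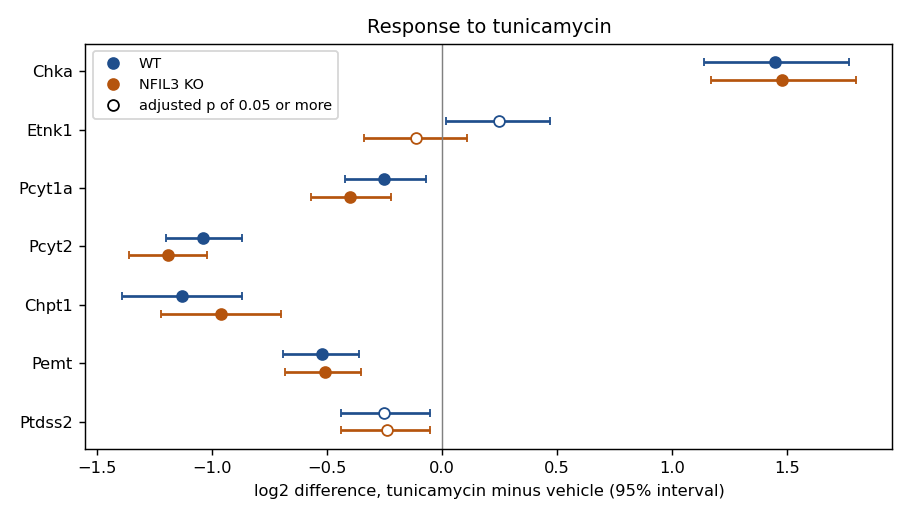
Log2 difference between tunicamycin and vehicle livers (x axis, with 95% interval as a bar) for the 7 measured genes (y axis) in WT and NFIL3 KO livers, with open points for an adjusted p of 0.05 or more. Chka lies at 1.45 and 1.48, Pcyt2 at -1.04 and -1.19, Chpt1 at -1.13 and -0.96, and the points of Etnk1 and Ptdss2 are open in both genotypes.

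Loss of NFIL3 did not move any of the 7 genes past the threshold with vehicle, and no difference was larger than 0.24 log2 in size. The comparison called 0.0225 percent of all genes. It did not call the targeted gene Nfil3 either, at -1.03 ± 0.23 log2 (SE, adjusted p = 0.227), so an uncalled gene may still differ. Chpt1 differed by -0.24 ± 0.13 log2 (SE, 95% interval -0.50 to 0.02, adjusted p = 0.921) with the smallest unadjusted p, 0.0723. The intervals of the others ran from -0.22 to 0.41 for Chka, -0.10 to 0.35 for Etnk1, -0.16 to 0.19 for Pcyt1a, -0.12 to 0.21 for Pcyt2, -0.23 to 0.09 for Pemt and -0.25 to 0.14 for Ptdss2. By limma 0 of the 7 had an unadjusted p below 0.05, and the model without variance moderation also called 0.

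After tunicamycin, limma and the unmoderated model each called 0 of the 7 genes between NFIL3 KO and WT livers, where limma called 0.243 percent of all genes. With an unadjusted p below 0.05 in limma there was 1, Etnk1, at -0.24 ± 0.11 log2 (SE, 95% interval -0.46 to -0.01, unadjusted p = 0.0392, adjusted p = 0.521), which shrank to -0.14 log2 without KO tunicamycin replicate 3. Of the treated NFIL3 KO livers 4 lay below all treated WT livers for Etnk1, at 7.75 to 8.25 against 8.31 to 8.52. The intervals were -0.19 to 0.45 for Chka, -0.31 to 0.04 for Pcyt1a, -0.27 to 0.06 for Pcyt2, -0.33 to 0.19 for Chpt1, -0.23 to 0.10 for Pemt and -0.25 to 0.14 for Ptdss2. These comparisons share their livers with the tunicamycin comparisons and are not independent of them.

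The response itself was compared between genotypes by the interaction term. In limma it called 0.00902 percent of all genes, and it called 0 of these 7 in limma and in the unmoderated model. Nfil3 itself was not called by this term in limma, at -1.72 ± 0.33 log2 (SE, adjusted p = 0.218). For Chka the response differed by 0.03 log2 (95% interval -0.42 to 0.48), and for its brighter probeset by -0.03 (-0.76 to 0.70), or 0.29 without KO tunicamycin replicate 3 (adjusted p = 0.989). It differed by -0.15 for Pcyt2 (-0.39 to 0.08), by -0.15 for Pcyt1a (-0.40 to 0.10), by 0.17 for Chpt1 (-0.20 to 0.54), by 0.01 for Pemt (-0.22 to 0.24) and by 0.00 for Ptdss2 (-0.28 to 0.28). Etnk1 had the one unadjusted p below 0.05, with -0.36 ± 0.15 log2 (SE, -0.68 to -0.04, unadjusted p = 0.0283, adjusted p = 1). A p above the threshold does not show equal responses, and these intervals bound the differences that 5 mice a group leave possible.

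The other listed genes with values, 84 in all, were of phospholipid metabolism, its regulators and ER membrane shaping. Of these, 17 rose and 32 fell with tunicamycin in WT livers, and 15 rose and 34 fell in NFIL3 KO livers. These totals include 10 regulators, of which 4 rose and 4 fell in WT livers, and 3 and 3 in NFIL3 KO livers. They also include 7 genes of ER membrane shaping, of which 3 rose and 3 fell in WT livers, and 3 and 2 in NFIL3 KO livers. Over all genes, 13.7 percent rose and 13.7 percent fell in WT livers, and 13.5 and 13.7 percent in NFIL3 KO livers. Of the 11090 brighter genes fitted alone, 3055 rose and 2996 fell in WT livers, and 3033 and 3032 in NFIL3 KO livers. The counts of each list, here and in the paragraphs that follow, are read against these shares. A count near them is not a result about its list. The 84 were not filtered on signal, and their lists were chosen with earlier results of these data known. The median difference of the 84 was -0.14 log2 in WT and -0.16 log2 in NFIL3 KO livers, against -0.03 over all genes in each. At the steps next to the measured enzymes, Ptdss1, which makes phosphatidylserine from phosphatidylcholine, fell by 0.52 ± 0.11 log2 (SE) in WT and by 0.57 ± 0.11 in NFIL3 KO livers. Selenoi, the ethanolaminephosphotransferase, fell by 0.34 ± 0.10 in WT livers, and in NFIL3 KO livers its difference was -0.15 (adjusted p = 0.342). These were 2 of 4 genes in that list that fell in WT livers, with 1 of 4 in NFIL3 KO livers.

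Most of the called genes of choline supply and disposal fell. Among 5 choline transporters, Slc44a1 (-0.96 ± 0.12 log2 in WT, -1.07 in NFIL3 KO) and Slc44a3 (-0.83 ± 0.16, -0.96) fell in both genotypes, and the rest were not called. Of the rest, Slc44a4 (group means 3.88 to 4.19) and Slc5a7 (3.64 to 3.78) lay below the array medians of 4.65 to 4.77. Both were named after their values were seen. Of 11 genes of choline oxidation and the methyl cycle, which turn choline into betaine and supply methyl groups, 6 fell in WT and 7 in NFIL3 KO livers, and 1 rose in each. Chdh, choline dehydrogenase, fell by 0.97 ± 0.12 in WT and by 1.25 in NFIL3 KO livers, and Bhmt2, of the betaine-homocysteine methyltransferase family, by 0.98 ± 0.13 and 1.02. Dmgdh, dimethylglycine dehydrogenase, fell by 0.71 and 0.63, and Aldh7a1, which can oxidise betaine aldehyde, by 0.67 and 0.69. The riser was Mat2b, a regulatory subunit of methionine adenosyltransferase, at 0.52 and 0.44, named after its values were seen.

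The genes that make phosphatidic acid and diacylglycerol, the lipid backbone for the phosphotransferases, moved both ways. Of 11 measured, 4 rose and 4 fell in WT livers, and 3 rose and 4 fell in NFIL3 KO livers. Gpam, the mitochondrial glycerol-3-phosphate acyltransferase, fell by 1.75 ± 0.15 log2 in WT and by 1.91 in NFIL3 KO livers, and Agpat2, which adds the next acyl chain, by 1.52 ± 0.11 and 1.48. Among the lipins, which dephosphorylate phosphatidic acid to diacylglycerol, Lpin3 rose by 2.01 ± 0.13 and 2.19, and Lpin2 fell by 1.91 ± 0.22 and 1.35. The other risers, all acyltransferases and chosen after their values were seen, were Gpat3 (1.26 and 1.59), Agpat5 (0.86 and 0.84) and, in WT livers, Agpat3 (0.27, adjusted p = 0.0295), which differed by 0.16 in NFIL3 KO livers (adjusted p = 0.224).

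In the branch through CDP-diacylglycerol, 2 of 7 genes rose and 3 fell in WT livers, and 1 rose and 3 fell in NFIL3 KO livers. Crls1, cardiolipin synthase, rose by 1.23 ± 0.10 log2 in WT and 1.44 in NFIL3 KO livers, while the CDP-diacylglycerol synthases Cds2 (-0.49 and -0.72) and Tamm41 (-0.45 and -0.39) fell. Cdipt, phosphatidylinositol synthase, rose by 0.42 in WT livers, with a difference of 0.32 in NFIL3 KO livers that was not called (adjusted p = 0.0644). Of 10 genes of acyl-chain remodelling 2 fell in each genotype, Lpgat1 (-1.49 ± 0.15 and -1.42) and Mboat7 (-0.40 and -0.65), and 1 rose in NFIL3 KO livers. Of all genes 13.7 percent fell in each genotype, and 13.5 percent rose in NFIL3 KO livers.

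**Figure D4:**
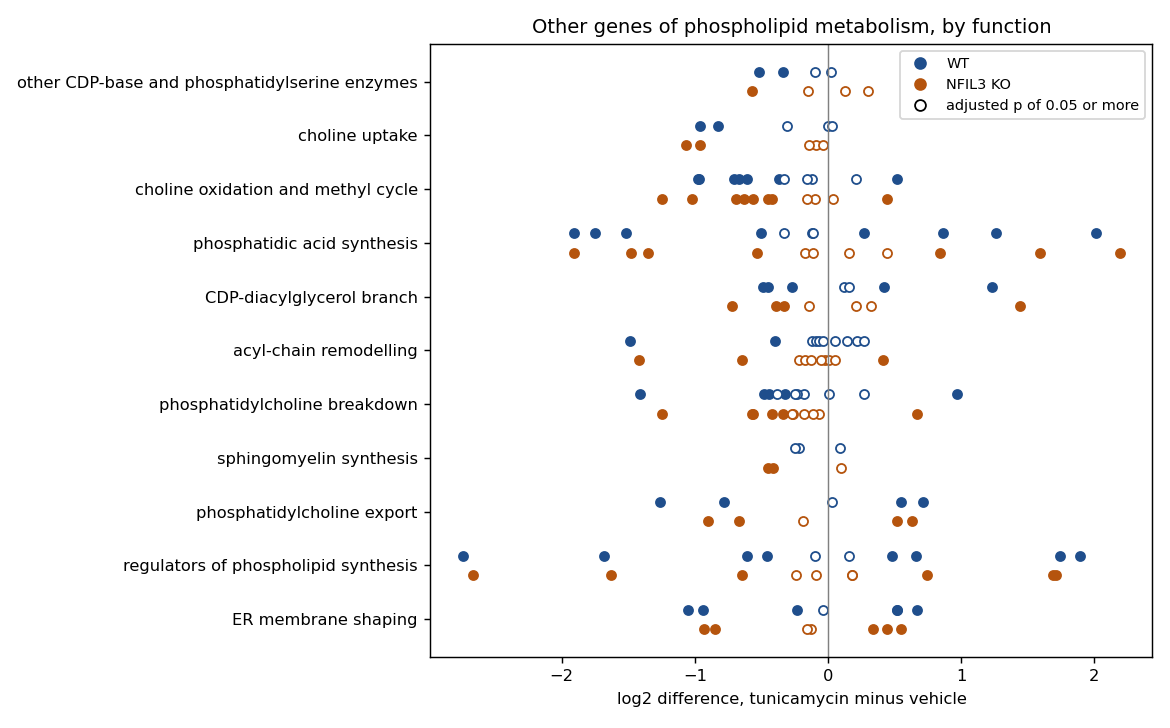
Log2 difference between tunicamycin and vehicle livers (x axis) of the other 84 measured genes, in WT and NFIL3 KO livers, with open points for an adjusted p of 0.05 or more. The genes, of phospholipid metabolism, its regulators and ER membrane shaping, are grouped by function (y axis). In both genotypes filled points lie on both sides of 0 for choline oxidation, phosphatidic acid synthesis, the CDP-diacylglycerol branch, breakdown, export, regulators and ER membrane shaping, and on the falling side alone for choline uptake and the other CDP-base and phosphatidylserine enzymes.

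On the way out, 4 of 11 genes of phosphatidylcholine breakdown fell in WT and 6 in NFIL3 KO livers, and 1 rose in each. Gpcpd1, which releases choline from glycerophosphocholine, fell by 1.41 ± 0.17 log2 in WT and by 1.25 in NFIL3 KO livers. The lysophospholipase Lypla1 (-0.48 and -0.56) and the lysosomal phospholipase Pla2g15 (-0.44 and -0.34) fell, and the secreted phospholipase Pla2g12a rose (0.97 ± 0.12 and 0.67). Pla2g12a was also the single gene of these 84 called between the genotypes after tunicamycin, where livers without NFIL3 averaged 5.98 and WT livers 6.71, with no overlap (-0.73 ± 0.12, 95% interval -0.98 to -0.49, adjusted p = 0.00449). With vehicle it differed the same way, by -0.43 ± 0.12 (-0.67 to -0.19, unadjusted p = 0.00132, adjusted p = 0.443), with 3 of 5 NFIL3 KO livers below all WT livers, and its response to tunicamycin differed by -0.30 (-0.65 to 0.04, adjusted p = 1). Limma called 0 of the 84 with vehicle and 0 in the interaction.

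Among 3 genes of the sphingomyelin synthase family, none was called in WT livers and 2 fell in NFIL3 KO livers. These were Sgms2 (-0.45, against -0.22 in WT) and Samd8 (-0.41, against -0.25), and the difference between the genotypes was not called. Of 5 genes of phosphatidylcholine export 2 rose and 2 fell in each genotype. Abcb4, the canalicular transporter that puts phosphatidylcholine into bile, rose by 0.71 ± 0.13 log2 in WT and 0.63 in NFIL3 KO livers, and Pltp, the plasma phospholipid transfer protein, by 0.55 and 0.52. Mttp, which loads lipid onto apolipoprotein B, fell by 0.78 ± 0.09 and 0.67, and the carrier Pctp by 1.26 ± 0.20 and 0.90.

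Of 10 listed regulators 4 rose and 4 fell in WT livers, and 3 rose and 3 fell in NFIL3 KO livers. Srebf1, a driver of lipid synthesis, fell by 2.74 ± 0.24 log2 in WT and by 2.67 in NFIL3 KO livers, and Ppara, a driver of fatty acid oxidation, by 1.68 ± 0.16 and 1.63. The unfolded protein response factors Atf4 (1.89 ± 0.12 and 1.71) and Atf6 (1.74 ± 0.09 and 1.69) rose. Total signal of Xbp1, another such factor that is activated by splicing, differed by -0.10 and -0.09 and was not called, and a gene-level array value does not separate its spliced form. Xbp1 was named after its values were seen. Of 7 genes that shape ER membrane 3 rose and 3 fell in WT livers, and 3 rose and 2 fell in NFIL3 KO livers. The atlastin Atl3 (-1.05 and -0.85) and the reticulon Rtn4 (-0.94 and -0.93) fell, and the sheet protein Ckap4 (0.67 and 0.55) and the tubule junction protein Lnpk (0.52 and 0.34) rose.

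Some markers of liver cell types moved with treatment as well. The counts below are read against all genes, of which 13.7 percent fell in each genotype. Risers made up 13.7 percent in WT and 13.5 percent in NFIL3 KO livers. Hepatocyte markers, which check the liver label, had a summed linear signal over 7 genes of 53227 to 55674 in vehicle livers and 45579 to 48386 in tunicamycin livers, and 5 of the 7 fell in each genotype, while Alb differed by -0.06 and -0.04 log2 and was not called. Summed markers of sinusoidal endothelium (8 genes) were 2550 to 3102 with vehicle and 2114 to 2714 with tunicamycin, and 3 of the 8 fell in each genotype. For Kupffer cells and macrophages (8 genes) the sums were 987 to 2187 with vehicle and 1045 to 1786 with tunicamycin, and 2 rose in WT and 0 in NFIL3 KO livers. Of 8 stellate cell markers 1 fell in each genotype, and of 5 cholangiocyte markers 1 fell in WT livers. Of 7 lymphocyte and 6 neutrophil markers limma called 0 in either genotype, at sums of 109 to 157 and 86 to 176. Except for Csf3r, group means of these lymphocyte and neutrophil markers were at most 4.74, around or below the array medians of 4.65 to 4.77. An uncalled marker at such a signal says little of these cells. The 1 measured erythroid marker, Slc4a1, was not called. Their part in the changes of Pcyt1a, Pcyt2, Chpt1, Pemt and Chka was not tested.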

How the data were processed

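Liver RNA from 20 mice was hybridised to Affymetrix MoGene arrays, 1 per mouse. The authors deposited log2 signal per probeset, after RMA background correction, quantile normalization and median polish in Partek Genomics Suite, as the study's methods state. Deposited values ran from 0.515 to 13.7, and precision rests on how many arrays there are per group. Of 41345 probesets, 23521 carry a single gene symbol, 1820 carry more than 1 and 16004 carry no symbol. Probesets with a single symbol were averaged per symbol into 22180 genes, with no filter on dim genes. Group means were fitted in limma 3.58.1 (R 4.3.3; lmFit, eBayes) over all 20 arrays, with two-sided contrasts and Benjamini-Hochberg adjustment over all genes. The script was tested on simulated data. The labels and files give no batch, scan date or litter, so none was modelled. The genes and lists were chosen with earlier results of these data known. Named are the 10 genes, up to 4 called genes of each other list with the largest difference in WT livers (in NFIL3 KO livers where none was called in WT), Nfil3 and Hspa5. Alternatives were probeset-level tests, an ordinary factorial model of probesets without variance moderation, other normalizations, array weights, a trended robust variance, a filter on dim genes, a fold minimum, fits of 2 groups, a replicate block and leaving out each array. RefSeq tables (GRCm38.p6) gave promoters and gene order. Files held no coordinates, and 7 listed genes other than markers had no probeset of their own.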

Additional observations from a re-analysis of the deposited data

Results flagged for a closer look

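In the NFIL3 KO tunicamycin group, Chka in replicate 3 read 5.90 log2, while the other 4 livers read 6.81 to 6.97, a gap of 0.85 of the range of the group. This array also stood apart on the first principal component. In the WT tunicamycin group, Pcyt1a in replicate 2 read 7.95 log2, while the other 4 livers read 7.81 to 7.84, a gap of 0.76 of the range. These were the 2 of 36 groups of values in which 1 liver lay far from the rest, and chance gives about 1 in 20.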

How the results depend on the processing

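Over the other settings and left-out arrays, 987 of 1008 refitted differences of the 7 genes kept their side of the threshold, 7 lost the call and 14 gained it. Of the differences called in either fit 0 changed direction, while some uncalled ones close to 0 changed sign, such as Chka between genotypes after tunicamycin (0.13, lowest -0.01). The 7 were Pcyt1a in WT livers, and the 14 were Etnk1 in WT livers (3) and Ptdss2 in WT (6) and NFIL3 KO livers (5). Read at the brighter probeset alone, the rise of Chka went from 1.45 to 2.55 log2 in WT and from 1.48 to 2.52 in NFIL3 KO livers. Values of that probeset without KO tunicamycin replicate 3 were chosen after seeing the data. A minimum of 1.5-fold left 3 genes called in each genotype in place of 5, and 29 of the 84 other genes in each in place of 49. The share of all genes at that minimum was not counted. Leaving out 1 array gave 4 to 6 called genes in WT and 5 to 6 in NFIL3 KO livers, and 46 to 51 and 46 to 50 of the others. Of all 22180 genes, these fits called 2786 to 3164 risers and 2798 to 3151 fallers in WT livers. In NFIL3 KO livers they called 2722 to 3227 and 2720 to 3186. Between genotypes 0 of the 7 were called under every setting run. Over all genes, the count between genotypes after tunicamycin was 39 higher and 15 lower in limma on averaged genes. It was 17 and 5 in limma on probesets, and 15 and 4 in the model of probesets without variance moderation. Replicate numbers recur across groups, but the 30 correlations of same-numbered arrays ran from -0.137 to 0.104, so they were not taken as pairs. With a replicate block the called genes numbered 5 in each genotype and 0 between genotypes, and the others 49 in WT and 48 in NFIL3 KO livers.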
